A study of Mus musculus with 6 samples.

Results

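The 10 genes described here, Pecam1, Cdh5, Kdr, Tek, Cldn5, Vwf, Emcn, Plvap, Tie1 and Car4, are markers of endothelial cells, the cells that line the blood vessels of the choroid. They were chosen by name, and all 10 were found among the 33924 genes of the authors' table. RNA was sequenced from RPE/choroid, the retinal pigment epithelium (RPE) scraped from the sclera together with the vascular layer behind it, of 3 young and 3 aged C57BL/6J mice. By their titles the young mice were 1 to 2 months old and the aged mice 20 to 24 months old, although the age field puts the aged mice at 22 to 24 months. The labels describe all mice as male, whereas the methods of the study describe both sexes and a higher age for the young mice. Per these methods, 2 eyes made up a sample. No gene was altered and no treatment was given in either group. The value analysed here is the mean normalized count of a gene over the 6 libraries, as the authors computed it, so young and aged mice are averaged in every value below. The authors' own comparison of the age groups was not used, no difference with age is given, and no value carries an SD or a test.

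The choroid feeds the outer retina. Its innermost capillary bed, the choriocapillaris, lies against the RPE, and its endothelium has fenestrae, pores that are spanned by a diaphragm. Endothelial cells hold to each other by adherens and tight junctions and read vascular endothelial growth factor (VEGF) and angiopoietins through receptor tyrosine kinases. In bulk tissue fewer endothelial cells and less RNA per endothelial cell cannot be told apart.

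In pooled young and aged RPE/choroid, 9 of the 10 genes had mean normalized counts from 717 (Cdh5) to 7925 (Emcn), and Car4 stood apart with 35.3. A gene read once in a single library has a mean between 0.157 and 0.174, which makes the mean of Car4 equal to 203 to 225 such counts over the 6 libraries. Each of the 10 genes was therefore detected, and Car4 rested on the fewest reads. Long transcripts gather more reads, so genes were compared with each other by level, the mean normalized count per kb of the longest annotated transcript. This takes the authors' values as not yet divided by length. The other choices of length named below are the shortest coding transcript, the median transcript length and no scaling by length. By level the order was Cldn5, Emcn, Plvap, Kdr, Pecam1, Tek, Tie1, Vwf, Cdh5 and Car4, and the highest was 173-fold above the lowest. The median level of the 10 genes was 913 per kb, at percentile 80.5 of the 17973 genes with a mean of at least 10 and a known length. The median level of those genes was 213 per kb, and 8 of the 10 genes lay above it. Percentiles and the median of all genes given below refer to these 17973 genes, unless another filter is named.

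**Figure D1:**
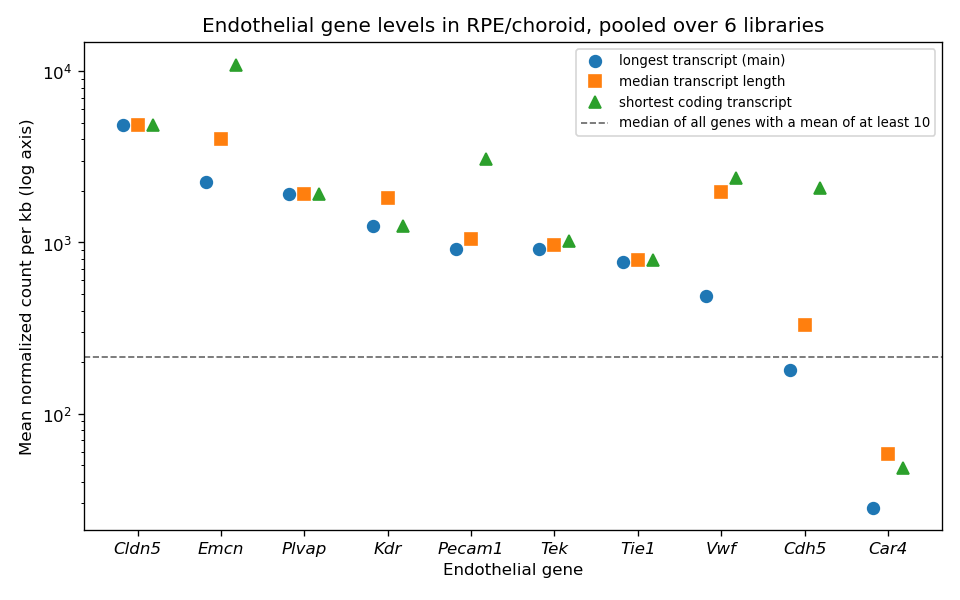
Mean normalized count per kb (log axis) of the 10 endothelial genes, pooled over the 6 libraries, with 3 choices of transcript length (circles, squares, triangles) and the median of all genes (dashed line, 213 per kb). Cldn5 and Plvap have 1 annotated transcript and do not move, Cdh5 moves from 179 to 2072 per kb, and Car4 is lowest with each choice.

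The level of a gene in the table depends on how reads were divided among genes and transcripts as well as on its RNA. The 63 genes of cytosolic ribosomal proteins named Rpl, Rps, Rplp or Rpsa, most of whose products enter each ribosome in equal number, had levels from 251 (Rpl28) to 59704 (Rplp1) per kb. Their 90th percentile was 21.5-fold above their 10th percentile. Sequence shared with other genes was not counted for the ribosomal protein genes, so their spread does not measure the error of an endothelial gene. Differences between a pair of endothelial genes are given below as values of the table, and no test could be made of them. Sequence shared with other genes was rare among the 10 genes. Of all stretches of 31 bases in their annotated transcripts, between 97.9% (Pecam1) and 100% were found in no other gene.

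The promoters of the genes at both ends of the order, and of the receptor gene Tek, are shown because endothelial genes are commonly driven by factors of the ETS family, which bind a GGAA core. Each sequence is the 250 bases before the RefSeq start in GRCm38.p6, 5′ to 3′ on the strand of the gene, with GGAA or its complement TTCC in capitals.

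Cldn5, chr16:18776597-18776846, plus strand: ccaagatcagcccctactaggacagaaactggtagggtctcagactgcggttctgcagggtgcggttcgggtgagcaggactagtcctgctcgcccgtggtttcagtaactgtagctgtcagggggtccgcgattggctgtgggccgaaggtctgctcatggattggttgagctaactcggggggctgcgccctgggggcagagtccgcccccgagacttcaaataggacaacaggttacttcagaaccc

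Tek, chr4:94739039-94739288, plus strand: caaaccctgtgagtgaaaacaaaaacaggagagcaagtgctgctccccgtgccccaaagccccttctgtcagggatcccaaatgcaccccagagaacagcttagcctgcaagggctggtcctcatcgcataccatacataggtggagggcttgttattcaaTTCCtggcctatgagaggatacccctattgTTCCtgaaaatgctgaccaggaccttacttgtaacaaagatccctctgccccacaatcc

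Car4, chr11:84957504-84957753, plus strand: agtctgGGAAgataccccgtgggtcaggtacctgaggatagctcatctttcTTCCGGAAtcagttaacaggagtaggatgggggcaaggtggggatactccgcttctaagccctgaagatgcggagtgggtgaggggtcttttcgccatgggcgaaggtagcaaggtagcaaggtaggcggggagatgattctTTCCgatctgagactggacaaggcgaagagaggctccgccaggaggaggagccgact

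RefSeq promoters were at hand for 6 of the 10 genes, Car4, Cldn5, Emcn, Kdr, Tek and Tie1. In the 300 bases from 250 before to 50 after the start, GGAA or TTCC was counted 9 times in Tie1, 6 in Emcn, 5 in Kdr, 4 in Car4, 2 in Tek and 0 in Cldn5. At least 1 match was present in 5 of the 6 genes and in 96.0% of the 32851 promoters of the same length in the reference, where the median was 3. At least 5 matches were present in 3 of the 6 genes and in 28.6% of all promoters, and in the 250 bases before the start alone in 1 of the 6 genes and 18.03% of all promoters. The gene with the highest level thus had no match in this window. CpG dinucleotides numbered 19 in Kdr, 15 in Car4, 12 in Cldn5, 7 in Tie1, 3 in Tek and 2 in Emcn, against a median of 7 in all promoters. TATAA or its complement TTATA was found in Car4 alone among the 6 genes and in 24.9% of all promoters, and in none of the 6 genes when the 50 bases after the start were left out. RefSeq and GENCODE place some starts differently. For Tie1, 212 of the 250 bases before the RefSeq start lie inside the GENCODE gene, so most of its window is annotated there as transcribed. The RefSeq start of Car4 lies upstream of the GENCODE gene, which holds 18 of the last 30 bases of its window.

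Junction genes took the first place in the order and the last but one. Cldn5 encodes claudin-5, the main tight junction claudin of endothelium. It is a gene of 1 exon at chr16:18776847-18778262 (plus strand) in GRCm38, as are all gene positions given here, and encodes 218 residues. Its mean normalized count was 6899 and its level 4872 per kb, at percentile 96.0 of all genes and 2.16-fold above the next gene. The table's other claudins on the lists, Cldn12 and Cldn3, had levels of 1005 and 39.6 per kb. Cldn12 passed Cldn5 where the shortest coding transcript set the length, with a ratio of Cldn5 to Cldn12 of 0.464 in place of 4.85. Ocln, which encodes occludin, had a level of 264 per kb.

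Cdh5 encodes VE-cadherin, the adherens junction protein of endothelium, with 784 residues. The gene lies at chr8:104101625-104144511 (plus strand), and shares 4249 bases with Gm29682, an antisense noncoding gene. Its mean normalized count was 717 and its level 179 per kb, at percentile 46.3, just under the middle of the genes with a mean of at least 10. Claudin-5 RNA was thus 27.2-fold above VE-cadherin RNA by level, and Pecam1 was 5.10-fold above it. With the shortest coding transcript, which has 346 bases in Cdh5, these ratios were 2.35 and 1.49, and Cdh5 took the fifth place among the 10 genes. Esam, another adhesion gene of endothelial junctions, had a level of 1364 per kb. The catenins that bind the tail of VE-cadherin are made in many cell types, and Ctnnb1 (13687 per kb), Jup (519 per kb) and Ctnnd1 (367 per kb) were each above Cdh5 with the longest transcripts, although Jup (697 per kb) and Ctnnd1 (462 per kb) lay below Cdh5 (2072 per kb) with the shortest coding ones.

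Pecam1 encodes the adhesion receptor CD31, which endothelial cells share with platelets and leukocytes. It lies at chr11:106654217-106750628 (minus strand) and has 8 annotated transcripts. Its mean normalized count was 3147 and its level 915 per kb, at percentile 80.5, next to Tek (912 per kb). The ratio of Pecam1 to Tek was 1.00 with the longest transcripts, 3.04 with the shortest coding ones and 0.742 unscaled by length, so their order rests on the length used.

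Emcn encodes endomucin, a sialomucin of the surface of capillary and venous endothelium, with 261 residues. It lies at chr3:137341067-137432185 (plus strand). It had the highest mean normalized count of the 10 genes (7925) and the second highest level (2251 per kb, percentile 91.5). With the shortest coding transcript, of 723 bases, Emcn passed Cldn5 and had 10962 per kb. The sialomucins Cd34 and Podxl had 2618 and 2043 per kb with the longest transcripts, while with the shortest coding ones Emcn was 3.36-fold above Cd34 and 5.36-fold above Podxl.

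Plvap and Car4 are both used as markers of capillary endothelium, and they lay far apart in this table. Plvap encodes the protein of the diaphragms that span fenestrae and caveolae. It lies at chr8:71497765-71511752 (minus strand), where Gtpbp3 on the other strand overlaps it over 1819 bases. Its mean normalized count was 3794 and its level 1909 per kb, at percentile 90.1. Gtpbp3 had a mean normalized count of 1085, and reads of the overlap cannot be told apart if the counting did not use strand. Car4 encodes carbonic anhydrase 4, an enzyme held on the outer face of the cell membrane, with 305 residues. It lies at chr11:84957786-84966044 (plus strand). Its level was 28.1 per kb, at percentile 16.3 of the genes with a mean of at least 10, and 67.9-fold below Plvap. The ratio of Plvap to Car4 was 39.6 with the shortest coding transcript, 32.7 with the median transcript length and 107 unscaled by length. Car4 was thus far below Plvap with each of them. Car4 has 6 annotated transcripts, of which 2 are coding.

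Of the 8 genes listed for capillaries and fenestrae, which include Plvap, Kdr and Car4, 6 had levels above the median of all genes. Igfbp3, which encodes a binding protein of insulin-like growth factors, was highest with 3484 per kb, followed by Nrp1, a VEGF coreceptor, with 3028 per kb. Below the median of all genes were Gpihbp1, which holds lipoprotein lipase in capillaries, with 159 per kb, and Car4.

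Kdr encodes VEGF receptor 2, the main signaling receptor for VEGF-A. It lies at chr5:75932827-75978458 (minus strand), with 30 exons in its longest transcript of 5924 bases. Its mean normalized count was 7369, the second highest of the 10 genes, and its level was 1244 per kb, at percentile 85.4. Flt1, which encodes VEGF receptor 1, had 562 per kb and Flt4, which encodes the receptor VEGFR3 of lymphatic endothelium, had 43.8 per kb. Kdr was 2.21-fold above Flt1 with the longest transcripts, while with the median transcript length the ratio was 0.964, so their order rests on the length used. Kdr was 28.4-fold above Flt4, and between 26.9-fold and 32.9-fold with the other choices. Among the ligands, Vegfa had 3062 per kb, Pgf 1128, Vegfb 634, Vegfc 279 and Figf, which encodes VEGF-D, 47.2 per kb. Vegfa is made by the RPE among other cells and was 2.46-fold above Kdr, and between 1.43-fold and 16.6-fold with the other choices. The coreceptors Nrp1 and Nrp2 had 3028 and 786 per kb.

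**Figure D2:**
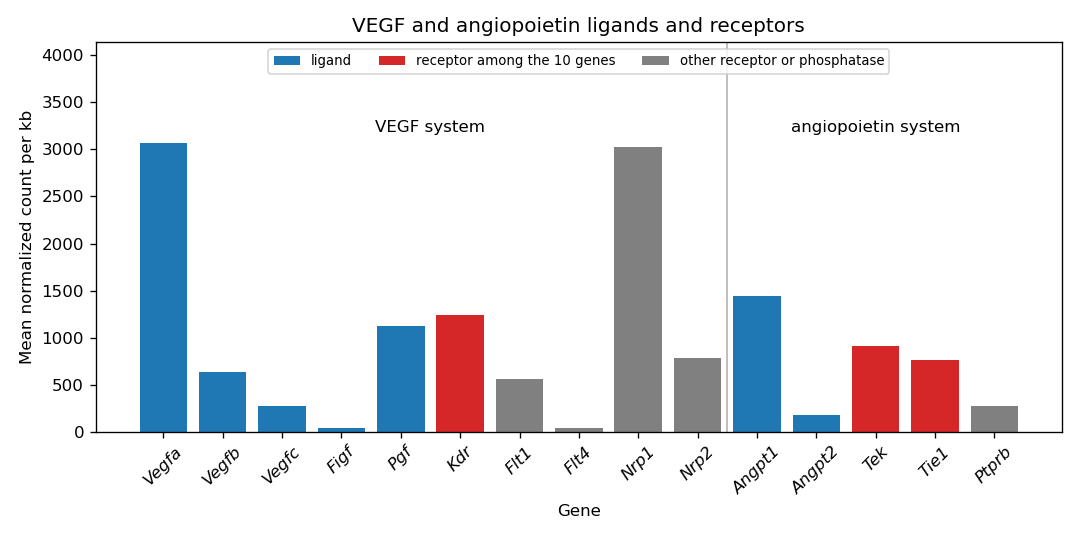
Mean normalized count per kb of VEGF and angiopoietin ligands (blue), of the receptors among the 10 genes (red) and of other receptors and a phosphatase (gray), pooled over the 6 libraries. Vegfa (3062 per kb) and Nrp1 (3028 per kb) are highest, and Kdr (1244 per kb), Tek (912 per kb) and Tie1 (767 per kb) lie in the middle of the range.

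Tek and Tie1 encode related receptor tyrosine kinases, of 1123 and 1134 residues. Tek, also named Tie2, binds the angiopoietins, and Tie1 has no ligand of its own in this family and acts with Tek. Both lie on chromosome 4, Tek at chr4:94739289-94874976 (plus strand) and Tie1 at chr4:118471191-118490061 (minus strand), 23.6 megabases apart. The mean normalized count of Tek was 4242 and its level 912 per kb (percentile 80.5), and those of Tie1 were 3246 and 767 per kb (percentile 77.5). Tek was 1.19-fold above Tie1, and the ratio was between 1.23 and 1.31 with the other choices of length, so the order of the pair was kept over these choices. Angpt1, the activating ligand, had 1440 per kb and Angpt2, a ligand that endothelial cells release, had 182 per kb, a ratio of 7.93. Ptprb, a phosphatase that acts on Tek, had 282 per kb.

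Vwf encodes von Willebrand factor, the clotting protein stored in endothelial granules, with 2813 residues. It lies at chr6:125546774-125686679 (plus strand), with 52 exons and a longest transcript of 8834 bases. Its mean normalized count of 4292 was the fourth highest of the 10 genes, and its level was 486 per kb, at percentile 68.3 and in the eighth place. Of its 11 annotated transcripts 3 are coding, and with the median transcript length Vwf had 1965 per kb and the third place. For Selp, which encodes the P-selectin of the same granules, the mean normalized count was 13.1 and the level 3.81 per kb. F8, which encodes the clotting factor that von Willebrand factor carries, had 17.2 per kb.

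**Figure D3:**
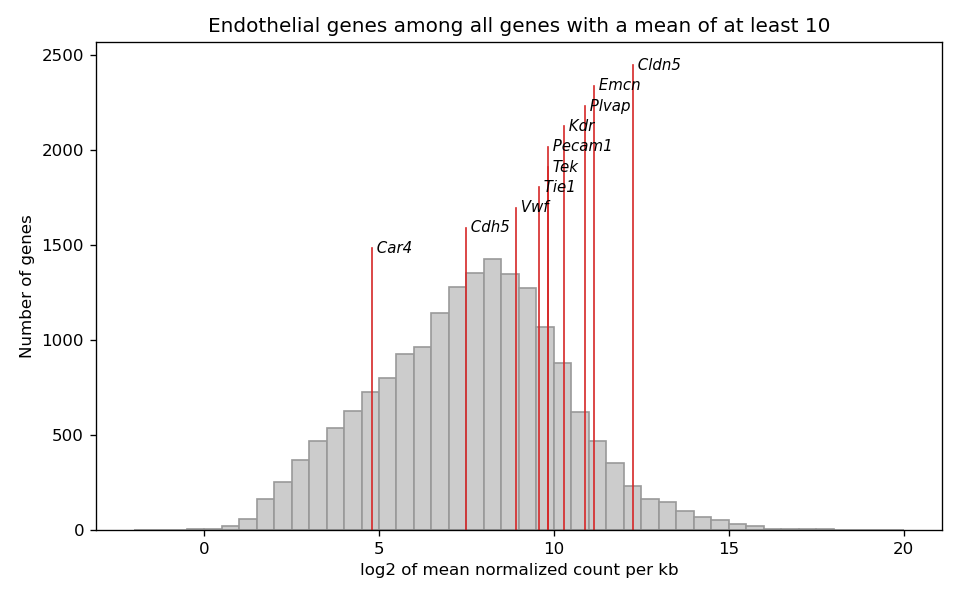
Number of genes (gray bars) by log2 of the mean normalized count per kb, for genes whose mean was at least 10, and the 10 endothelial genes as red lines. Car4 lies in the lower tail at percentile 16.3, Cdh5 near the middle at 46.3 and Cldn5 in the upper tail at 96.0.

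The label of the 10 genes was set against 24 other genes of endothelium. Each of the 24 genes had a mean of at least 10, and 18 had levels above the median of all genes. Their median was 466 per kb, against 913 for the 10 genes, and they ran from 32.0 (Sox7) to 3551 per kb (Egfl7), with Cd34 second. In the 34 endothelial genes together, with the longest transcripts, Cldn5 was in place 1, Emcn in place 4, Plvap in place 7, Cdh5 in place 27 and Car4 in place 34, the last. With the other choices of length Cldn5 took places 2 to 6, with Egfl7 or Podxl first, and Cdh5 places 12 to 27. Car4 was in place 33 or 34, with Sox7 as the other gene at the lower end.

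Among lists of vessel types, 10 arterial genes had a median of 239 per kb, led by Fbln5 (1262 per kb) and Sema3g (567 per kb). The lowest arterial genes were Gja5 (91.4 per kb) and Efnb2 (64.5 per kb). The 7 venous genes had a median of 375 per kb, led by Vcam1 (1112 per kb) and Icam1 (955 per kb). Darc, Sele and Selp were the lowest venous genes, with 50.5, 32.2 and 3.81 per kb. Which cells made the RNA of these arterial and venous genes was not tested. The 5 lymphatic genes had a median of 43.8 per kb. Pdpn (7673 per kb) and Reln (327 per kb), which other cells also make, stood above it, while Lyve1 and Prox1 had 30.0 and 7.33 per kb. The level of Car4 was thus near that of Lyve1 with the longest transcripts, with a ratio of Lyve1 to Car4 of 1.07. This ratio was between 0.622 and 2.46 with the other choices of length. The 8 genes of the endothelium of the blood-retina barrier, Cldn5 among them, had a median of 569 per kb, with Slc2a1 (9470 per kb), a glucose transporter that the RPE makes as well, above Cldn5 and with Mfsd2a at 427 per kb.

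Levels of other cell types bear on how the 10 genes can be read. The 10 rod photoreceptor genes had a median of 7008 per kb, with Gnat1, the transducin subunit of rods, at 10858 per kb, and none was under 1612 per kb, so RNA of the neural retina was present. Retinal vessels also express endothelial genes, Cldn5, Pecam1, Cdh5 and Vwf among them. Their part in the levels was not tested for any of the 10 genes. The 9 platelet and megakaryocyte genes had a median of 25.2 per kb, from 0.342 (Gp6) to 840 per kb (Pf4), with Itga2b at 70.3 per kb. Pf4 was the only 1 of the 9 genes above the median of all genes, and which cells made its RNA was not tested. Platelets share Pecam1 and Vwf with endothelium. The ratio of Vwf to Pf4 was 0.579 with the longest transcripts and between 1.64 and 8.69 otherwise. The ratio of Pecam1 to Itga2b was 13.0 with the longest transcripts and between 2.82 and 43.9 otherwise. Of the 9 genes, 8 had a mean of at least 10. The part of platelets in the levels of Pecam1 and Vwf was not tested.

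Of the 18 other lists, 10 had medians under that of the 10 endothelial genes and 8 were above with the longest transcripts. The capillary, barrier, pericyte and smooth muscle, and macrophage lists changed sides with at least 1 other choice of length. The pericyte and smooth muscle list and the macrophage list did so only with no scaling by length. The 11 genes of pericytes and smooth muscle, the cells around the vessels, had a median of 645 per kb, led by Rgs5 (11043 per kb) and Acta2 (3972 per kb). The 6 Schwann cell genes had 412 per kb, with Pmp22 at 2898 per kb. Above the 10 genes were the macrophage list with 2493 per kb, led by C1qa and C1qc, and the fibroblast list with 6447 per kb, led by Dcn and Lum. The skeletal muscle list had 12809 per kb, led by Mylpf and Tnnt3, the melanocyte list 16166, led by Dct and Pmel, and the red cell list 27461 over the 4 genes with a known length, led by Hba-a2 and Hba-a1. Hbb-b1 and Hbb-b2, with mean normalized counts of 90981 and 46024, had no matched length and are not in that median. Most melanocyte genes on the list are pigment genes that the RPE also makes, while Sox10 and Kit had 452 and 61.2 per kb. The 10 RPE genes were highest with 34564 per kb, led by Ttr and Trf, which is 37.9-fold above the median of the endothelial genes. The 10 endothelial genes held 0.102% of all mean normalized counts and 0.0632% of the summed levels per kb.

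**Figure D4:**
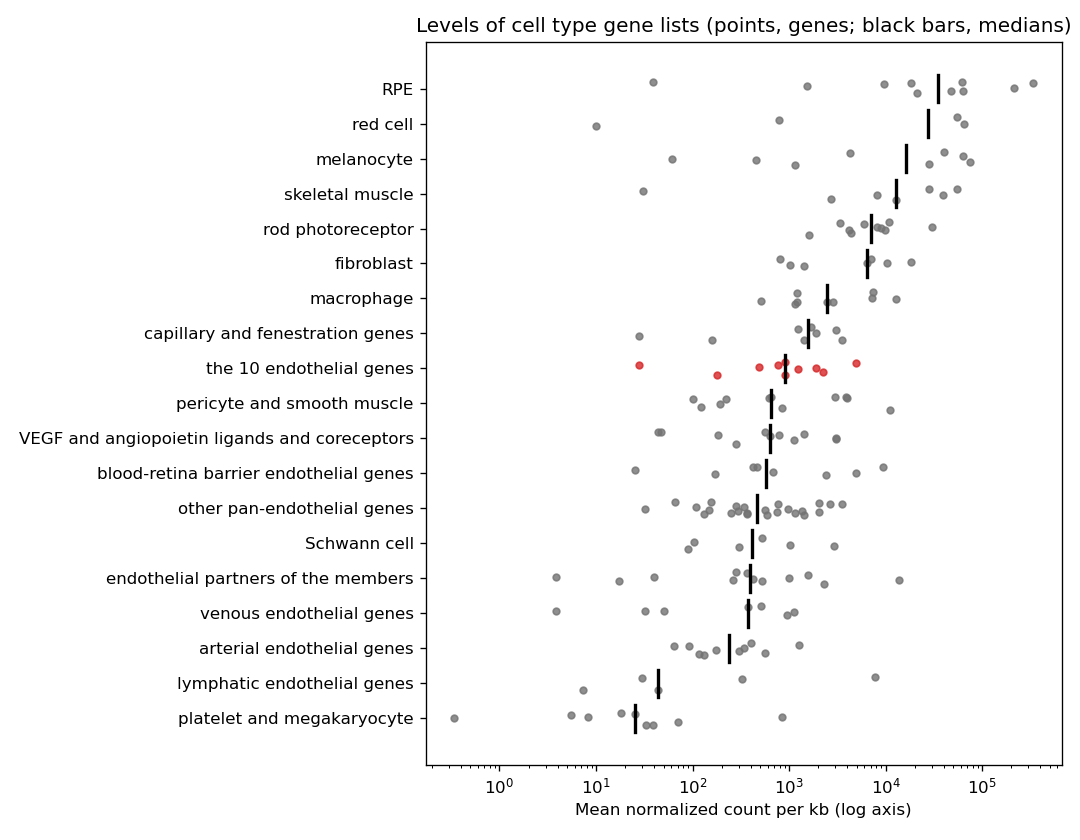
Mean normalized count per kb (log axis) of each gene (points) of 19 cell type and pathway lists, pooled over the 6 libraries, with list medians as black bars and the 10 endothelial genes in red. The endothelial median (913 per kb) lies above 10 of the other lists and below 8, with the RPE list highest (34564 per kb).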

How the data were processed

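Per the labels, RNA was depleted of rRNA and enriched for poly(A) RNA, although the library protocol names a stranded kit for total RNA and no poly(A) step. The number of genes in the table is also the number that the paper gives for its libraries without poly(A) enrichment, so which of its library sets the table holds was not settled. Per the paper's methods, the authors used BBDuk for trimming, STAR for mapping (Ensembl GRCm38 transcripts), Sailfish for quantification, total counts for scaling and then DESeq2. Whether counting used strand is not given in the sources used here. The deposited signal analysed here is the mean normalized count per gene over the 6 libraries, the authors' pooled value. The other 5 columns hold the authors' comparison of young and aged mice (fold change, standard error, statistic, p-value and adjusted p-value) and were not used.

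The planned fit of aged against young needs values per library and was not run. The means add up to 40816668. The worth of a single count differed by 1.11-fold at most between libraries. Since the authors had scaled to total counts first, this does not give the depth of a library, and no interval is given. The values are not yet per length: of 115 genes with means under 1 and transcripts under 100 bases, 56 had the mean of a single count (within 2e-06), and Spearman's rho of mean and length across genes was 0.187. Levels were divided by GENCODE M21 (GRCm38) transcript lengths, matched by symbol or a unique RefSeq synonym for 97.3% of the 18479 genes with a mean of at least 10. Lists were summarized by medians, listed genes at 0 included, and none was at 0. Named are the 10 genes, of each other list the 2 highest levels (some items are not reported here), and further listed genes chosen after their values were seen. The members and lists were chosen with earlier results of these data known, and the ribosomal protein genes and the minimum of 5 promoter matches were added after seeing the data. Promoters are RefSeq's for GRCm38.p6. Scripts, checked on simulated data, used Python 3.11.15, numpy 2.4.6, pandas 2.3.3, scipy 1.17.1 and matplotlib 3.10.9.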

Additional observations from a re-analysis of the deposited data

How the results depend on the processing

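No paired analysis was possible because only values pooled over the 6 libraries were used. For the same reason no library could be left out, and other normalizations and filters per library were not run. The number of the 10 genes above the median of all genes was 8, and 8 or 9 without a filter, under a filter of 50 on the mean, for other lengths and unscaled by length. Of the 45 pairs of the 10 genes, 34 kept their order with the shortest coding transcript, 40 with the median transcript length and 35 with no scaling by length. The number of lists with a median under that of the 10 genes was between 9 and 11. GGAA or TTCC was found in 5 of 6 promoters with either window. The share of summed levels moved from 0.0632% to 0.0708% without the 10 most abundant genes, 0.0834% among coding genes, 0.0516% with the shortest coding transcript and 0.0447% with the median transcript length. The levels of 5 of the 10 genes moved by over 1.5-fold with the shortest coding transcript, up to 11.5-fold (Cdh5), and those of 4 with the median transcript length. List medians, that of the 10 genes included, moved by over 1.5-fold in 15 of 19 lists with the shortest coding transcript and in 10 with the median transcript length. The transcripts that the authors' counts of a gene stand for are not given in the sources used here, so levels between genes are limited by the choice of length, and the values hold no spread between mice.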

Other observations

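Other genes of the same cell type or the same protein also lay far apart in the table, which was noticed after seeing the data. Best1, a channel gene of the RPE, had a mean normalized count of 81.8, while Rpe65, an enzyme of the visual cycle made in the same cells, was 1555-fold higher by level. Mylpf, a myosin light chain of fast muscle, was 1751-fold above Tnnc2, a troponin of fast muscle. Best1 and Tnnc2 were picked as the lowest genes of the RPE and skeletal muscle lists. In these lists 9 of 10 RPE genes and 6 of 7 muscle genes lay above the median of all genes. Col1a2 was 6.89-fold above Col1a1, although type I collagen holds more chains of the latter, but this ratio was 1.31 with the median transcript length and 43.4 with the shortest coding transcript. The cause was not tested. The low values of Cdh5 and Car4 were in the same table and were not compared with another measurement.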
